A study of Mus musculus with 8 samples.

Results

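The genes described here are the imprinted long noncoding RNA H19, the growth factor gene Igf2, the 3 genes for IGF2 mRNA-binding proteins (Igf2bp1, Igf2bp2 and Igf2bp3) and the 2 receptor genes Igf1r and Igf2r. They were taken by symbol, 7 of the 32285 genes in the expression matrices, and are described in epithelial cells of the mouse tongue. Epithelial cells were chosen by their own transcripts: Krt5, Krt14, Krt15, Krt13 and Krt6a together made up at least 0.5% of the unique molecular identifiers (UMIs, the count of captured transcript molecules) of the cell, and Ptprc, which marks leukocytes, was at 0. This rule kept 12957 of 42550 cells, counted within the limits the study set on cells (between 1000 and 5500 genes, up to 30000 UMIs, and mitochondrial UMIs up to 7%), which 25199 cells met. Members of the list were proposed with results of these libraries already known, so a pattern among them is a description and not independent evidence.

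The study compared 4 genotypes of young adult littermates in age- and sex-balanced groups, with 2 single-cell libraries each, 15 days after the start of induction. All animals carried Krt14-CreERT and LSL-rtTA, and per the study's methods also an H2B-GFP reporter, and all received tamoxifen into the tongue and doxycycline in the diet, so transgenes were switched on only in cells of the Krt14 lineage. N animals carried no further transgene. E animals carried tetON_E6-E7, the oncogenes of human papillomavirus 16. Y animals carried tetON_YAP1S127A, a form of the transcriptional coactivator YAP that the Hippo kinases cannot restrain at that residue, and EY animals carried both. The cells were sorted for viability only. The title of the second N library carries 2 animal numbers, so it may hold pooled animals.

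H19 and Igf2 lie side by side and are imprinted in opposite ways: H19 is read from the maternal copy and Igf2 from the paternal copy, under a shared control region bound by the insulator protein CTCF. IGF2 is a fetal growth factor that signals through the receptor kinase IGF1R and is taken up and degraded by IGF2R. The IGF2BP proteins bind mRNAs, the Igf2 mRNA among them, and are known as oncofetal proteins because they are made in the embryo, largely shut off in adult tissue and made again in many tumours. The let-7 microRNAs repress the IGF2BP mRNAs, while the LIN28 proteins block the making of let-7, and exonic sequence of H19 is itself the precursor of the microRNA miR-675.

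In GENCODE vM21 on GRCm38, H19 (ENSMUSG00000000031) lay at chr7:142575529-142578143 and Igf2 (ENSMUSG00000048583) at chr7:142650766-142666816, both on the minus strand. Igf1r (ENSMUSG00000005533) lay on the plus strand of the same chromosome, at chr7:67952827-68233668. Igf2bp1 (ENSMUSG00000013415) was annotated at chr11:95957163-96005940, Igf2bp2 (ENSMUSG00000033581) at chr16:22059009-22163299, Igf2bp3 (ENSMUSG00000029814) at chr6:49085223-49214957 and Igf2r (ENSMUSG00000023830) at chr17:12682406-12769664, all on the minus strand. The miR-675 arms and let-7a are shown 5′ to 3′ as RefSeq gives them for GRCm38.p6. Their seeds (bases 2 to 8, in capitals) set which target letters were searched. The microRNAs themselves were not measured in these libraries. Both miR-675 arms lie in an exon of H19, the 5p arm at chr7:142577112-142577133 and the 3p arm at chr7:142577078-142577099, and the let-7a copy shown lies at chr13:48538239-48538260.
mmu-miR-675-5p: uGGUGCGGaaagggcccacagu
mmu-miR-675-3p: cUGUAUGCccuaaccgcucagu
mmu-let-7a-5p: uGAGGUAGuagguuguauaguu

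The longest annotated 3′ UTR of each coding gene was searched on the mRNA strand for the letters that pair with each seed. CTACCTC, which pairs with the let-7 seed, stood in 9.02% of 21027 3′ UTRs, GCATACA (miR-675-3p) in 7.88% and CCGCACC (miR-675-5p) in 1.83%. The 3′ UTR of Igf2bp1 (6337 bases) held 4 let-7 matches, that of Igf1r (7267 bases) 2, and those of Igf2bp2, Igf2bp3 and Igf2r 1 each, while Igf2 held none. Longer UTRs hold more matches of any kind, and a match is a description of letters, not a shown binding site. Lin28b and Hmga2, known let-7 targets, held 4 each. The 4 matches of Igf2bp1, the member with the largest change, are printed with the pairing letters in capitals, from chr11:95961771-95961797, chr11:95959350-95959376, chr11:95958756-95958782 and chr11:95958133-95958159 in the order shown.
Igf2bp1 match 1: gtgcgaagtaaaCTACCTCaaggtgtg
Igf2bp1 match 2: cagtgctattaaCTACCTCagccccag
Igf2bp1 match 3: taaatggatgaaCTACCTCagtcctca
Igf2bp1 match 4: tttggttttaatCTACCTCttagcaaa
The matches in the other IGF2BP genes lay at chr16:22059466-22059492 (Igf2bp2) and chr6:49086780-49086806 (Igf2bp3).
Igf2bp2 match: cacaaataaaagCTACCTCaggtgttt
Igf2bp3 match: atttttactcaaCTACCTCaggtattc
Of the members, Igf1r was the one whose 3′ UTR held a match to miR-675-3p, at chr7:68226894-68226920 and chr7:68227653-68227679, and none held one to miR-675-5p.
Igf1r match 1: cctcatcaccccGCATACAcctgcctg
Igf1r match 2: cgtgaaacatttGCATACAcatcgtct

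The libraries held between 170 and 4055 epithelial cells and between 2454816 and 55154619 epithelial UMIs, and a cell had a median of 12575 to 23570 UMIs. The first EY library was the smallest, with 170 cells. Epithelial markers that the rule did not use were high in all 8 libraries: Epcam stood at 160 to 251 CPM, the cadherin Cdh1 at 66.8 to 115 CPM and Perp, a desmosome protein, at 1006 to 1514 CPM (CPM are UMIs scaled by TMM to a common library size). Mouse Yap1, whose reads could include those of the transgene, stood at 31.5 to 46.1 CPM in the N and E libraries and at 174 to 447 CPM in the Y and EY libraries. Markers listed for other cells were also found in the gate. Their sums over a list are CPM of summed UMIs, without TMM scaling. The summed level of 5 neutrophil markers was 4.56 to 37.9 CPM in N and E, 41.8 and 128 CPM in Y, and 2200 and 616 CPM in EY. The EY sums were mostly S100a8 and S100a9, with Retnlg at 141 and 25.7 CPM and Csf3r and Cxcr2 at 0.0284 to 2.84 CPM. The fibroblast list, nearly all of it Dcn, was at 1106 and 1227 CPM in N and at 255 and 28.5 CPM in EY. Col1a1 and Col3a1 stayed at or below 2.75 CPM in every library. Whether other cells or the gated cells made these transcripts was not tested. The part of these transcripts in the results was tested only by leaving out cells with leukocyte or fibroblast transcripts. Salivary gland or duct markers (6 genes) summed to 885 CPM in the second N library and 265 CPM in the second E library. They summed to 6.41 to 111 CPM in the others, and no alternative left out cells with them. The upper limits on genes and UMIs removed 2.10% to 64.7% of the cells that met the keratin rule and the other limits, least in the first N and E libraries and most in the first EY library. Pairs of libraries shared 2 to 19 barcodes.

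Igf2bp1 was the member that separated the genotypes. Its level was below 1 CPM in N and E and rose to between 12.2 and 24.8 CPM in cells with the YAP transgene, alone or with E6-E7. The 2 N libraries held 0.0593 and 0.596 CPM, from 3 and 5 UMIs, and the 2 E libraries 0.366 and 0.159 CPM, from 21 and 2 UMIs. The Y libraries held 12.2 and 12.8 CPM, from 287 and 254 UMIs, and the EY libraries 19.1 and 24.8 CPM, from 47 and 873 UMIs. Every library with the YAP transgene lay above every library without it. Within the study's cell limits both EY libraries also lay above both Y libraries.

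Igf2bp1 averaged 0.327 ± 0.379 CPM (SD, n = 2 for each genotype) for N, 0.263 ± 0.146 for E, 12.5 ± 0.432 for Y and 21.9 ± 4.01 for EY. In edgeR's quasi-likelihood test on UMIs summed per library, with Benjamini-Hochberg adjustment over all 13555 genes tested, Igf2bp1 had a log2 fold change of 7.07 for EY over N (SE 0.73, edgeR adjusted p = 0.00672). For Y over N it was 6.23 (SE 0.72, edgeR adjusted p = 0.0370). Because N held 8 UMIs in all, these fitted values rest on few control molecules. The ratio of pooled UMIs was 171 for EY over N (95% exact interval 86.2 to 396) and 90.6 for Y over N (45.6 to 211), and the 31 UMIs of N and E together gave a ratio of 71.3 (49.98 to 105) for libraries with over those without YAP. These intervals cover counting error only.

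In a model with additive terms for the 2 transgenes, the YAP term of Igf2bp1 was 6.17 (SE 0.48, edgeR adjusted p = 0.00173) and the E6-E7 term 0.84 (SE 0.42, adjusted p = 0.466). E against N gave 0.92 (SE 0.87, edgeR adjusted p = 1). Mean CPM went the other way from this fitted value, at 0.263 in E against 0.327 in N. Pooled UMIs gave 0.342 CPM in E against 0.137 in N, from 23 and 8 UMIs. The test of whether the 2 transgenes together departed from the sum of their effects, which uses the same few UMIs, gave -0.08 (SE 0.77, edgeR adjusted p = 0.980). The higher level of EY than of Y within the study's cell limits was thus read by the E6-E7 term, which did not pass. Without the first N library the EY against N value was 5.25 (edgeR adjusted p = 0.0539) and the Y against N value 4.39 (adjusted p = 0.279), and without the second EY library EY against N was 6.82 (adjusted p = 0.0537). The call in Y against N was also lost without the second N library, either E library, the second Y library or the first EY library, while the YAP term was called in all 19 alternatives run for it, at 4.76 to 6.73.

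**Figure D1:**
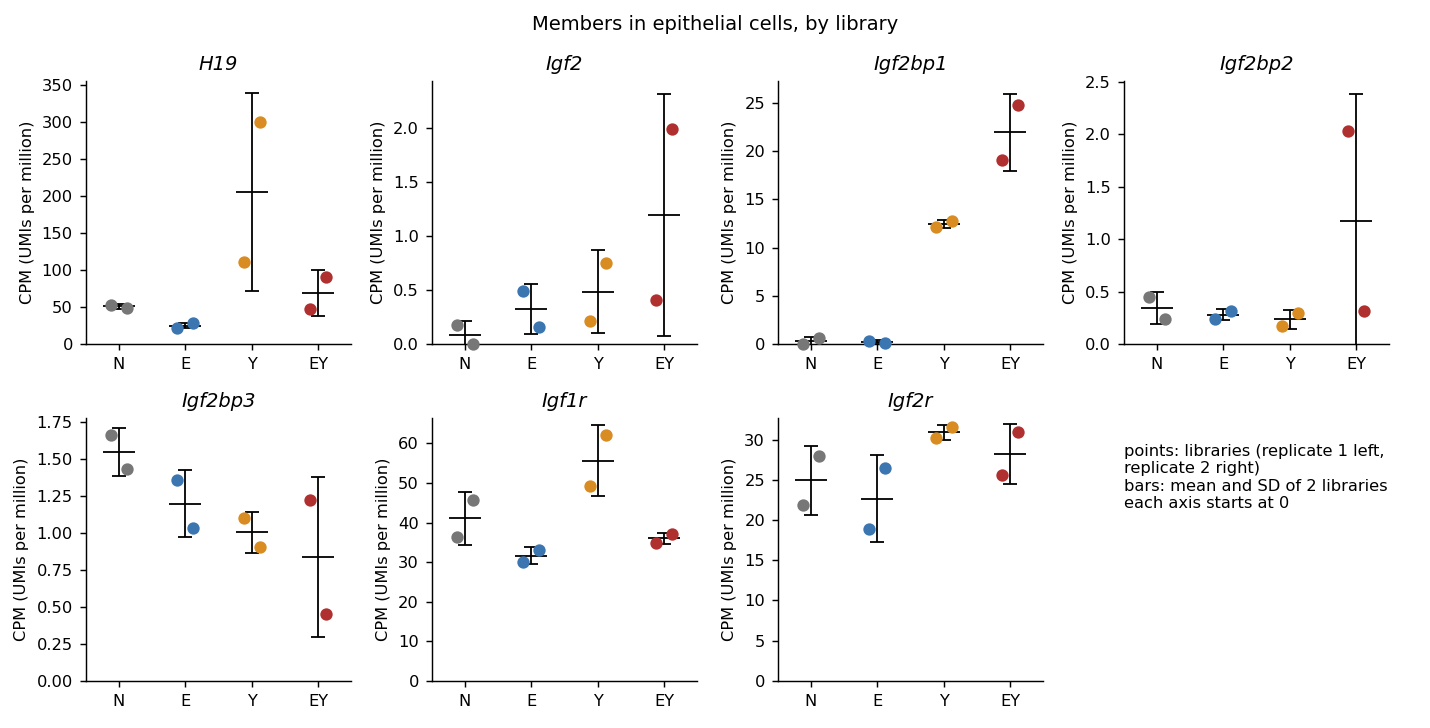
CPM of each of the 7 genes in the epithelial cells of each library (points, y axis from 0) by genotype (x axis), with the mean of the 2 libraries as a bar. Igf2bp1 lies at or below 0.596 CPM in N and E and between 12.2 and 24.8 CPM in Y and EY, while H19 is highest in the second Y library at 300 CPM.

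At the level of single cells, shares were compared after each cell was thinned to 2000 UMIs, so that deeper libraries did not detect more. Igf2bp1 was then found in 0 of 3446 and 0 of 415 N cells, which allows shares of cells with a UMI of up to 0.0871% and 0.723% at this depth and sets no limit on cells expressing the gene, and in 3 of 4053 (0.0740%) and 0 of 553 E cells. In Y it was found in 2.33% (95% exact binomial interval 1.58 to 3.31) and 2.60% (1.70 to 3.78) of cells, and in EY in 8.28% (4.603 to 13.5) and 4.39% (3.54 to 5.38). With all UMIs, 15.5% and 17.7% of Y cells and 17.1% and 27.8% of EY cells held a molecule, against at most 0.723% in any N or E library (3 cells in each N library).

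Leukocytes of the same libraries (Ptprc detected, keratins below the limit) served as background for free RNA. At 2000 UMIs they showed Igf2bp1 in at most 0.530% of cells (4 of 755 in the second EY library), and unthinned in at most 1.06%, at median depths of 3372.5 to 10871 UMIs. Over all libraries, leukocytes held 45 Igf2bp1 UMIs, or 0.506 CPM. Leukocytes stood at 0.674 CPM in Y and 0.711 in EY, and were highest in the second EY library at 2.10 CPM (8 UMIs). The 101 stromal cells held none, but those of Y and EY had only 407567 and 96088 UMIs to find it in. Epithelial cells that held Igf2bp1 had 1 to 7 molecules each, and 563 of 2027 cells of the second EY library held at least 1.

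**Figure D2:**
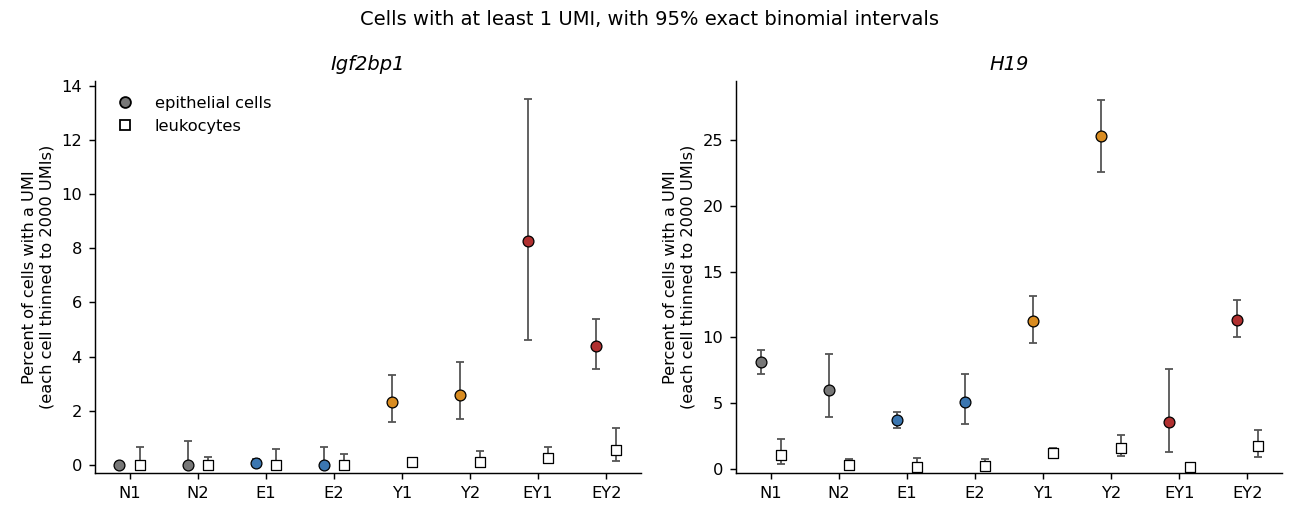
Percent of cells with at least 1 UMI of Igf2bp1 (left) and H19 (right) after thinning each cell to 2000 UMIs, by library (x axis), in epithelial cells (filled circles) and leukocytes (open squares), with 95% exact binomial intervals. Igf2bp1 reaches 2.33% to 8.28% of epithelial cells in Y and EY and at most 0.0740% in N and E, while H19 is found in 3.55% to 25.3% of epithelial cells in all groups.

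H19, the noncoding RNA, was expressed in epithelial cells of every genotype, highest in Y and lowest in E. The N libraries held 53.2 and 49.0 CPM, the E libraries 22.4 and 28.1, the Y libraries 111 and 300, and the EY libraries 47.5 and 91.3. Both Y libraries lay above all others and both E libraries below all others, whereas the EY libraries lay on either side of N, and the 2 Y libraries differed from each other by over 2-fold. H19 averaged 51.1 ± 3.01 CPM for N, 25.2 ± 3.97 for E, 206 ± 134 for Y and 69.4 ± 30.9 for EY (SD over 2 libraries).

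The YAP term of H19 was 1.75 (SE 0.33, edgeR adjusted p = 0.0187). The call was lost, at adjusted p of 0.0517 to 0.0625 in edgeR, when either N library, the first E library or the second EY library was left out. Y against N gave 2.01 (SE 0.47, edgeR adjusted p = 0.133; DESeq2 adjusted p = 1.54e-04), E against N -1.02 (SE 0.47, edgeR adjusted p = 1) and EY against N 0.47 (SE 0.46, edgeR adjusted p = 0.483). The EY against N value was -0.02 in cells with no fibroblast transcripts. That setting mostly removes cells with Dcn. It kept 1082 of 3447 and 144 of 415 N cells, against 125 of 170 and 1867 of 2027 EY cells. It thus also changes which epithelial cells are compared, and cannot separate that from fibroblast RNA. The E6-E7 term was -1.28 (SE 0.33, edgeR adjusted p = 0.237, unadjusted p = 0.00378) and passed in DESeq2 (adjusted p = 0.0136) and in cells with no fibroblast transcripts (-1.67, edgeR adjusted p = 0.0351). The interaction was -0.51 (SE 0.65, edgeR adjusted p = 0.784).

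The spread of H19 over cells was described by the share of its UMIs in the cells richest in it. The tenth of cells with the most H19 held between 65.1% (second Y library) and 88.9% (first EY library) of its UMIs, and 1 cell of the first Y library held 102. The same share for Igf2bp1 was 57.5% to 75.3% in the Y and EY libraries. It was 100% for the scarcer Igf2bp3 in the first Y library, so this share depends on how scarce a gene is. Thinned to 2000 UMIs, H19 was found in 8.10% and 6.02% of N cells, 3.70% and 5.06% of E cells, 11.3% and 25.3% of Y cells, and 3.55% and 11.3% of EY cells, against 0.130% to 1.72% of leukocytes. Stromal cells, few in number, also held H19, at 111 CPM (72 UMIs) in N. Their part in the epithelial values was tested only by the alternative without fibroblast transcripts given above, which also left out most epithelial cells of N.

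Igf2, the ligand, was scarce throughout. The N libraries held 0.178 and 0 CPM (9 and 0 UMIs), the E libraries 0.488 and 0.159 (28 and 2 UMIs), the Y libraries 0.212 and 0.754 (5 and 15 UMIs) and the EY libraries 0.406 and 1.99 (1 and 70 UMIs). The second EY library was the highest, with molecules in 59 cells and at most 6 in 1 cell, while the first rested on a single molecule. EY against N was 3.42 (SE 1.06, edgeR adjusted p = 0.0583) and the YAP term 1.92 (SE 0.67, edgeR adjusted p = 0.0988), neither past the threshold. EY against N did pass, at 2.79 to 3.89, with no upper limits, no cell limits, keratins at 2% or more, no leukocyte transcripts, no filter on low genes, and without the first EY library, and the YAP term passed under 3 of these (no upper limits, no cell limits and no filter). Leaving out 1 library moved EY against N between 1.55 (without the second EY library) and 8.10 (without the first N library, where the control holds 0 UMIs), neither of them past the threshold. The ratio of pooled UMIs of EY over N was 11.7 (95% exact interval 5.83 to 26.6), which counts molecules and not animals.

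The other binding protein genes were not called in any comparison between genotypes within the study's limits on cells and with all 8 libraries. Igf2bp2, the family member that adult tissues keep, gave 0.454 and 0.238 CPM in N, 0.244 and 0.319 in E, 0.170 and 0.302 in Y, and 2.03 and 0.312 in EY, the 2.03 CPM from 5 UMIs. EY against N for Igf2bp2 was 0.89 (SE 0.997, edgeR adjusted p = 0.537) and -0.28 without the first EY library. Igf2bp2 was a transcript of the stromal cells, at 33.5 CPM over all of them. Igf2bp3 was low in every library, at 1.66 and 1.43 CPM in N, 1.36 and 1.04 in E, 1.10 and 0.905 in Y, and 1.22 and 0.454 in EY. For Igf2bp3, EY against N was -1.36 (SE 0.56, edgeR adjusted p = 0.118) and the YAP term -0.77 (SE 0.36, edgeR adjusted p = 0.175), and leukocytes held more of it, 3.52 CPM. Igf2bp3 was called lower in EY against N with no cell limits (-1.28, edgeR adjusted p = 0.0352) and without the first EY library (-1.75, adjusted p = 0.0455), and in the YAP term with no cell limits (-0.90, edgeR adjusted p = 0.0260).

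Of the receptors, Igf1r held 36.3 and 45.7 CPM in N, 30.1 and 33.2 in E, 49.3 and 62.1 in Y, and 34.9 and 37.0 in EY. As for H19, both Y libraries were the highest and both E libraries the lowest. The YAP term was 0.32 (SE 0.13, edgeR adjusted p = 0.141) and the E6-E7 term -0.50 (SE 0.13, edgeR adjusted p = 0.278, unadjusted p = 0.00505). Igf2r, which clears IGF2, held 21.8 and 28.0 CPM in N, 18.9 and 26.5 in E, 30.3 and 31.5 in Y, and 25.6 and 30.9 in EY. Its YAP term was 0.33 (SE 0.15, edgeR adjusted p = 0.175), and its group ranges overlapped except that both Y libraries lay above both N and both E libraries. With no upper limits the YAP term passed for both receptors, at 0.46 for Igf1r (edgeR adjusted p = 0.00923) and 0.45 for Igf2r (adjusted p = 0.0161), and it also passed with no cell limits (edgeR adjusted p = 0.00896 and 0.0250).

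Counted over the 7 genes, 1 (Igf2bp1) was called in EY against N, where 18.8% of all 13555 genes tested were called, so the count is close to the background. In Y against N 1 (Igf2bp1) was called, beside 0.457% of all genes, and in the YAP term 2 (Igf2bp1 and H19) beside 8.98%. None was called in E against N (edgeR, 0.243% of all genes; 0 members at an unadjusted p under 0.05; 0 by DESeq2). None was called for the E6-E7 term either (edgeR, 0.406% of all genes), although 3 members (H19, Igf2 and Igf1r) had an unadjusted p under 0.05 and DESeq2 called 1 (H19). The interaction gave 0 members and 0 genes in all with edgeR (0% of genes; 1562 genes and 0 members at an unadjusted p under 0.05), against 90 genes and 0 members with DESeq2. The comparisons with N share the same 2 N libraries. All 7 genes passed the filter on low counts. Igf2bp1 passed it through the Y and EY groups, where it was highest. Igf2 passed it through the first E, second Y and second EY libraries, where it was highest. Igf2bp2 passed it only through the first N library and the first EY library, the latter with 5 UMIs.

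**Figure D3:**
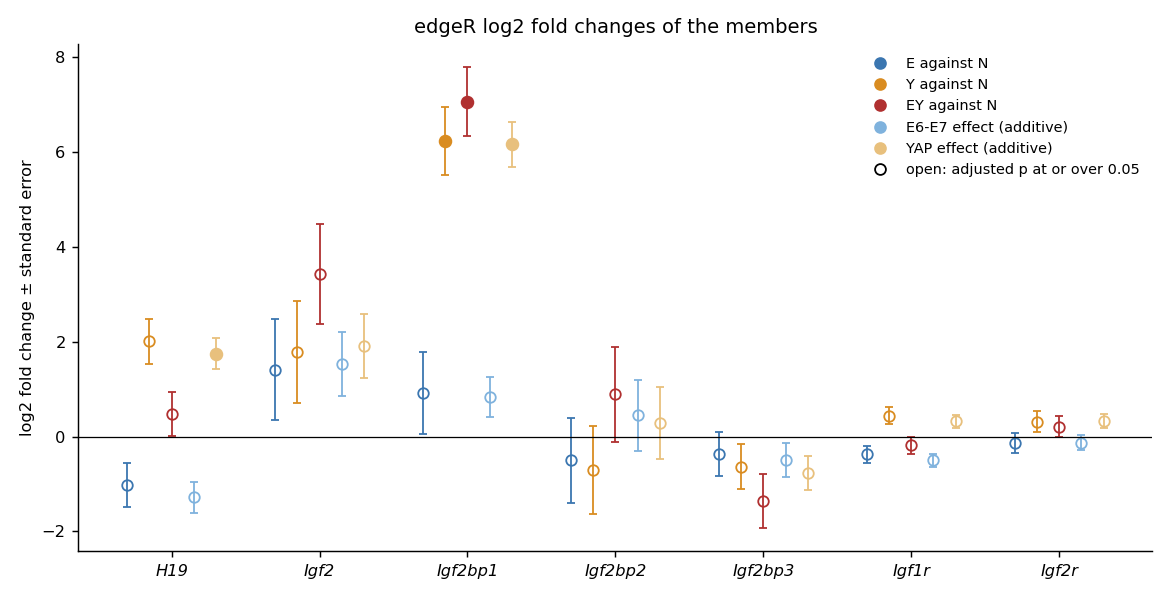
edgeR log2 fold changes (y axis, ± standard error) of the 7 genes (x axis) in 3 comparisons with N and for the 2 terms of the additive model; filled points passed an adjusted p under 0.05. Igf2bp1 stands at 6.17 to 7.07 in the 3 contrasts with YAP, and H19 is filled for the YAP term alone, at 1.75.

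Cells above the upper limits on genes and UMIs, left out so far, held more Igf2bp1 in every library in which it was found there. In those cells the Y libraries held 36.8 and 23.6 CPM and the EY libraries 26.8 and 35.0 CPM, against 0 and 3.80 in N and 2.19 and 1.49 in E. The 3.80 CPM of the second N library came from 53 UMIs. With these cells included, EY against N was 4.66 (edgeR adjusted p = 0.00978), Y against N 4.38 and the YAP term 4.85, all past the threshold, so the direction held and the size was smaller on the log2 scale. Summed UMIs with these cells included gave 25.8 and 19.1 CPM in Y and 25.9 and 27.0 CPM in EY. The first Y and first EY libraries were then nearly level, so the gap between EY and Y depended on the cell limits. The part of doublets in these deep cells was not tested.

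Within libraries, the members were compared between cycling and other cells, to see whether their levels went with the cell cycle. Cells were called cycling at 2 or more UMIs of 12 cell cycle genes after thinning to 2000 UMIs, which gave 18.3% to 43.8% in 7 libraries and 65.6% in the second EY library. This is a range along the cell cycle and not a cell type. H19 was higher in cycling cells in 8 of 8 libraries, by 0.60 ± 0.34 on the log2(CPM + 1) scale (SD, n = 8; exact two-sided sign-flip permutation test, p = 0.0078, the smallest the test can give). In N, cycling cells held 69.7 and 72.9 CPM against 47.1 and 40.0 in the other cells, in E 28.8 and 34.9 against 20.6 and 28.0, in Y 153 and 329 against 95.3 and 289, and in EY 76.7 and 95.3 against 30.9 and 68.7. With the library as a block in edgeR over all genes, the difference was 0.51 (SE 0.093, adjusted p = 0.00198).

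Igf2bp1 was found in both classes. Non-cycling cells of Y held 11.2 and 13.8 CPM and those of EY 12.2 and 18.1, beside 14.4 and 11.4 in cycling Y cells and 30.0 and 26.1 in cycling EY cells. The difference was 0.42 ± 0.64, higher in cycling cells in 6 of 8 libraries (exact permutation test, p = 0.102, and edgeR with the library block, adjusted p = 0.171). The N and E libraries held 2 to 21 UMIs in all, and the largest difference, 1.47 in the second N library, came from 5 UMIs. In the libraries with YAP it was 0.337 and -0.257 in Y and 1.23 and 0.506 in EY, too few libraries for the exact test to pass. Igf2bp2 was lower in cycling cells in 7 of 8 libraries, by 0.29 ± 0.26 (exact permutation test, p = 0.0156), on few UMIs. Of all genes tested, 32.7% passed the exact test in either direction, 9.84% were higher in every library and 29% were called by edgeR with the block, so 2 of 7 members (H19 and Igf2bp2) by the exact test and 1 (H19) by edgeR are near the background.

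Cells in which Krt13 and Krt4, keratins of the suprabasal layers, outnumbered Krt5, Krt14 and Krt15, keratins of the basal layer, were compared with the remaining cells in 7 libraries. The first EY library had 16 such cells and was left out. Igf1r was lower in the Krt13/Krt4 class in 7 of 7 libraries, by 1.07 ± 0.75 (exact permutation test, p = 0.0156, the smallest possible). The class held 17.7 and 7.74 CPM in N against 40.5 and 45.6 in the other cells, 12.9 and 14.1 in E against 34.4 and 35.8, 29.8 and 53.9 in Y against 50.6 and 64.3, and 29.2 in the second EY library against 35.5. The gap was widest in N and E and narrowest in the second Y and second EY libraries, and whether it differed between genotypes was not tested. In edgeR with the library block Igf1r was at -0.83 (SE 0.17, adjusted p = 0.00298).

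For Igf2bp1 the 3 libraries with YAP carry the signal. In these the Krt13/Krt4 class stood at 4.73 against 12.8 CPM, 12.1 against 13.1 CPM and, in the second EY library, 8.90 against 24.2 CPM. All 3 were lower, too few libraries for a test to pass, and the gene was not tested in edgeR with the block. The N and E libraries held 2 to 21 UMIs in all, and their classes read 0 against 0.0715, 0 against 0.598, 0.379 against 0.381 and 0 against 0.177 CPM, so that the exact test over 7 libraries, which Igf2bp1 formally passes, is not used for it. Igf2r was lower in 7 of 7 libraries by 0.31 ± 0.38 (exact permutation test, p = 0.0156), a call that edgeR with the block did not give (-0.20, adjusted p = 0.204). H19 went both ways, higher in the class in 2 of 7 libraries (-0.87 ± 1.42, exact permutation test, p = 0.172). The exact test passed for 39.8% of all genes, 18.9% were lower in every library and edgeR with the block called 32.6%, beside 3 of 7 members (Igf1r, Igf2r and, with the limit given, Igf2bp1) and 1 member (Igf1r).

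**Figure D4:**
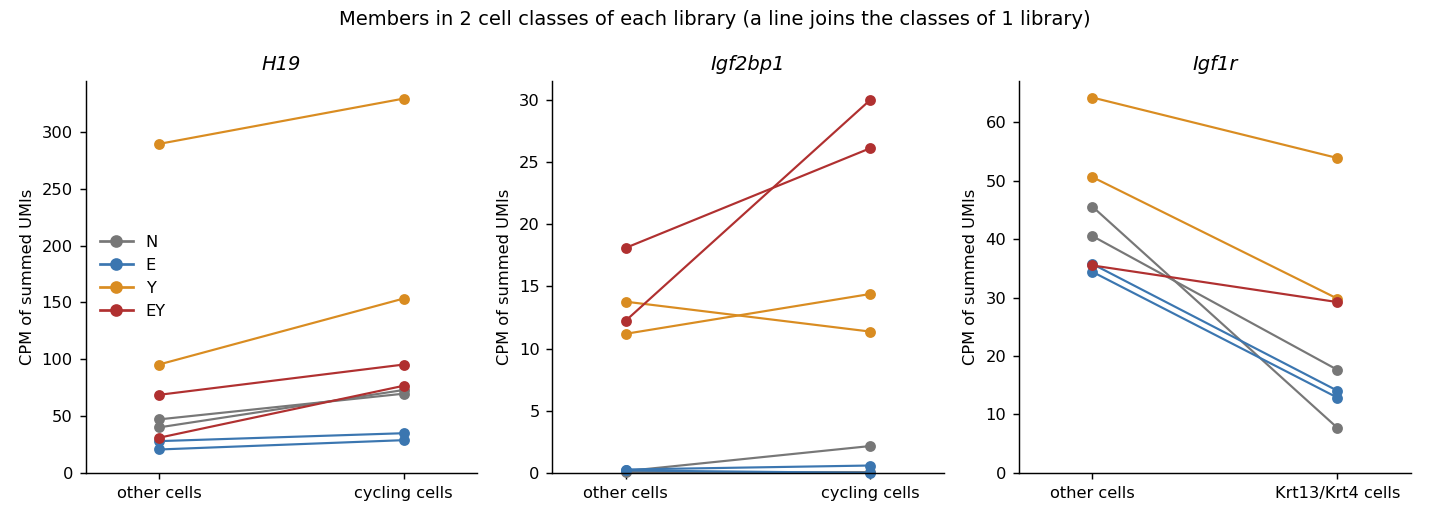
CPM of summed UMIs (y axis, from 0) in 2 classes of epithelial cells, a line joining the classes of each library, colored by genotype: H19 and Igf2bp1 in cycling and other cells, and Igf1r in Krt13/Krt4 and other cells. H19 is higher in cycling cells in 8 of 8 libraries and Igf1r lower in Krt13/Krt4 cells in 7 of 7.

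The share of cells with H19 was set beside the presence of Igf2bp1 in the same cell. In cells thinned to 2000 UMIs, H19 was found in 16.7% (95% exact interval 5.64 to 34.7) of Igf2bp1-positive cells and 11.1% (9.44 to 13.0) of the other cells of the first Y library, in 34.6% (17.2 to 55.7) and 25.0% (22.3 to 27.9) in the second, and in 11.2% (5.52 to 19.7) and 11.4% (9.97 to 12.8) in the second EY library. The intervals overlapped in all 3, at this depth. Near the edge of the keratin rule, 411 cells just inside (0.5% to 1% keratin) held 11.6 CPM of Igf2bp1 and 35.7 of H19. The 126 cells just outside (0.25% to 0.5%) held 6.16 and 1.54 CPM, from 8 and 2 UMIs. These values pool genotypes: N and E held 0 Igf2bp1 UMIs on both sides. Igf2bp1 was at 15.6 CPM inside and 12.6 outside in Y, and at 22.0 and 7.60 in EY.

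Among 5106 genes that averaged 20 CPM or more, those whose level over the 8 libraries was most like Igf2bp1 were Htra1 (r = 0.991), Myadm (r = 0.990) and Phactr4 (r = 0.987). Sptan1, Ahnak and Lgalsl were most like H19 (r = 0.983 to 0.974), Dctpp1, Rcc1 and Cops3 most like Igf2, and Stambp, Arhgap5 and Necap2 most like Igf1r. Igf2r was most like Dnajc13, Iars2 and Tardbp, Igf2bp3 most like Chd2, Tceal8 and R3hcc1, and Igf2bp2 most like Tmed2, Rasa2 and Sucla2. Of the members themselves, H19 and Igf1r followed each other most closely (r = 0.893), H19 and Igf2bp1 gave r = 0.658, and Igf2 and Igf2bp3 ran opposite (r = -0.855). These are correlations over 8 libraries of 4 genotypes, which share genotype and depth, and are given as descriptions.

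The genes around the members in their pathway changed in both directions in EY against N. Of 13 tested genes for IGF ligands, receptors and adaptors, 0 rose and 2 fell: Pik3r1, a regulatory subunit of PI3-kinase, from 31.4 ± 0.463 to 13.3 ± 0.0934 CPM (-1.23, edgeR adjusted p = 0.0127), and Insr, the insulin receptor, from 9.03 to 4.67 CPM (-1.07, adjusted p = 0.0461). The median of that list was -0.15, beside -0.05 for all genes tested, and its share called is near the 18.8% of all genes called in this comparison. Igf1, the second ligand, stayed at or below 1.205 CPM in every library and was not tested.

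The IGF-binding proteins and their proteases had 2 of 11 tested genes higher and 2 lower (median -0.73, beside 18.8% of all genes called). Igfbp5, which binds IGFs outside the cell, stood at 127 and 98.8 CPM in N, 127 and 166 in E, 9.07 and 11.1 in Y, and 2.44 and 0.454 in EY. Both groups with YAP lay far below both without it, and EY below Y. EY against N was -7.38 (SE 0.56, edgeR adjusted p = 0.00650) and Y against N -3.49 (edgeR adjusted p = 0.0370). Htra1, a secreted protease that cleaves IGF-binding proteins, went the other way, from 58.5 ± 12.1 CPM in N and 63.9 ± 2.58 in E to 184 ± 32.5 in Y and 229 ± 3.78 in EY (EY against N 1.97, edgeR adjusted p = 0.00672, Y against N 1.66, adjusted p = 0.0370). Stc2, an inhibitor of the IGFBP proteases of the pappalysin family, was nearly absent in N (2 UMIs) and at 2.44 and 13.3 CPM in EY. The ratio of pooled UMIs was 352 (95% exact interval 97.0 to 2918, edgeR adjusted p = 0.00983). Stc2 passed the filter on low counts through the second Y library and both EY libraries, where it was highest. Stc1, of the same family, had 69 UMIs in N and 2 in EY, a ratio of 0.0430 (0.00511 to 0.161; edgeR adjusted p = 0.0249), and is named after its values were seen.

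Of 10 tested genes of the imprinted domain beside H19 and Igf2, 2 were higher and 2 lower (median -0.03, beside 18.8% of all genes called). Phlda2, a growth-restraining gene read from the maternal copy, rose from 5.06 ± 2.26 to 26.8 ± 14.98 CPM (2.41, edgeR adjusted p = 0.0192) and Cdkn1c, an inhibitor of cyclin-dependent kinases, from 5.66 ± 0.580 to 17.5 ± 8.10 CPM (1.71, adjusted p = 0.0361). The E libraries held as much Cdkn1c, 26.3 and 12.8 CPM, but E against N did not pass (1.81, edgeR adjusted p = 0.381). Ascl2, a transcription factor, fell from 15.6 to 3.90 CPM (-2.46, edgeR adjusted p = 0.0314). Kcnq1ot1, the noncoding RNA of the neighbouring control region, fell from 203 ± 19.2 to 96.5 ± 10.1 CPM (-1.07, edgeR adjusted p = 0.0119) and is named after its values were seen. Among 8 tested genes of the wider imprinted network, Cdkn1c was the 1 that was called, a share below that of all genes.

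Of 10 tested LIN28, let-7 and oncofetal genes, 2 were higher and 2 lower (median 0.27, beside 18.8% of all genes called). Gpc3, an oncofetal heparan sulfate proteoglycan, fell from 96.3 ± 26.2 to 29.9 ± 3.06 CPM (-1.70, edgeR adjusted p = 0.00899), and Dis3l2, a nuclease that degrades uridylated let-7 precursors, from 13.1 to 6.69 CPM (-1.08, edgeR adjusted p = 0.0328). The 2 that rose were scarce and are named after their values were seen. Lin28b had 1 UMI in N and 29 in EY (ratio 43.0, 95% exact interval 7.13 to 1758, edgeR adjusted p = 0.0213). It passed the filter on low counts through the EY libraries alone, so its test leans on the group where it was high. No N, E or Y library held more than 0.296 CPM of Lin28b. Hmga2 had 12 UMIs in N and 48 in EY (ratio 5.94, 3.11 to 12.3, edgeR adjusted p = 0.0401).

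Among 17 tested partners of the IGF2BP proteins and enzymes of m6A, the RNA mark these proteins read, 1 was called: Fto, a demethylase, fell from 19.2 to 11.04 CPM (-0.79, edgeR adjusted p = 0.0361). Of 14 tested mRNAs described as bound by IGF2BP proteins, Fscn1, an actin-bundling protein, rose from 7.49 ± 4.56 to 37.7 ± 24.6 CPM (2.46, edgeR adjusted p = 0.0432) and Sox2, a transcription factor of stem cells, fell from 107 to 55.5 CPM (-0.96, edgeR adjusted p = 0.0242). Of 7 tested imprint and insulator factors, Dnmt3a, a DNA methyltransferase, fell from 10.9 ± 1.08 to 5.12 ± 0.225 CPM (-1.10, edgeR adjusted p = 0.0192). The shares called of these 3 lists, 1 of 17, 2 of 14 and 1 of 7, lie below the 18.8% of all genes. Without the first N library or without the second EY library, Igfbp5 was the 1 gene of these lists that stayed called, and it was also the 1 named gene called in all 20 alternatives.

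**Figure D5:**
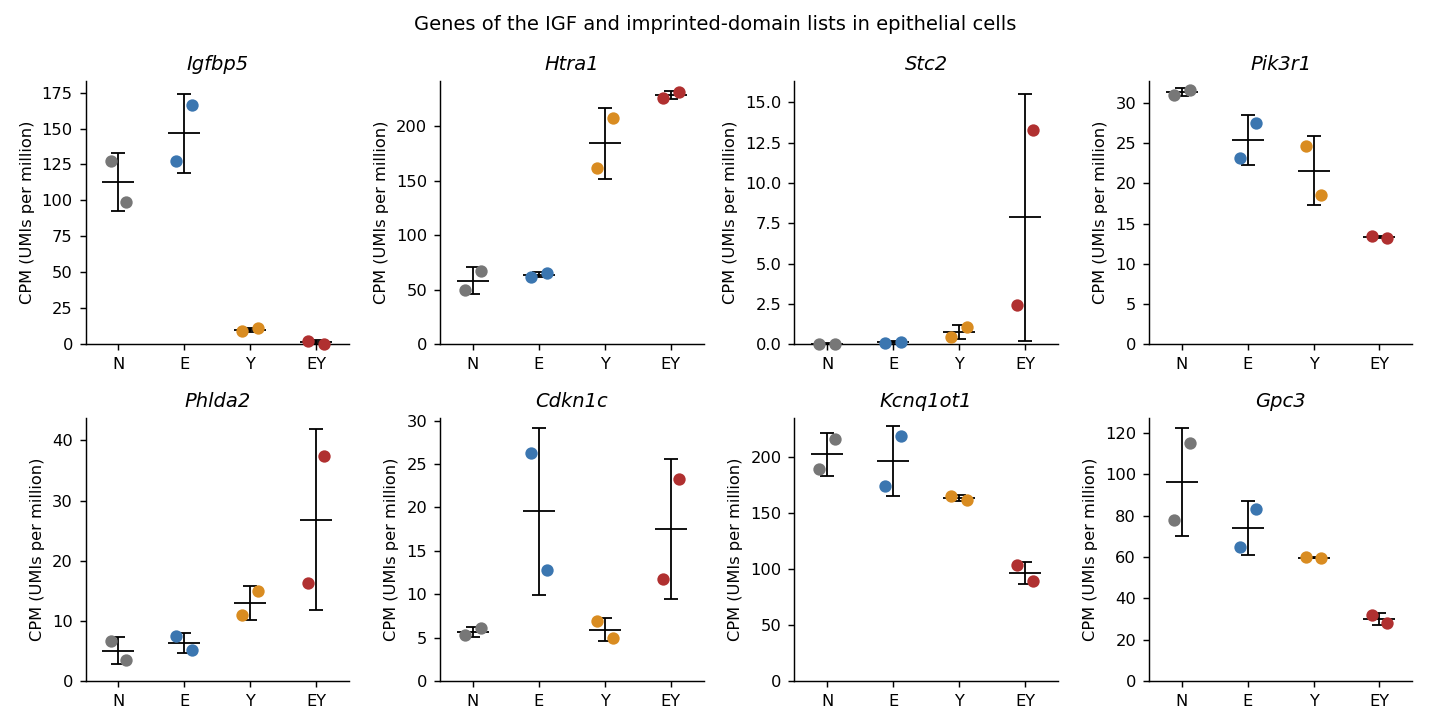
CPM (y axis, from 0) of 8 genes of the IGF, imprinted-domain and oncofetal lists in the epithelial cells of each library (points) by genotype (x axis), with the mean of 2 libraries as a bar. Igfbp5 falls from 98.8 to 166 CPM in N and E to 0.454 to 11.1 in Y and EY, Htra1 rises to 161 to 231 CPM, and Stc2 reaches 13.3 CPM in the second EY library.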

How the data were processed

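Single-cell 3′ RNA libraries (10x Genomics) of 8 tongue epithelium samples were used. The authors made the deposited raw UMI counts per gene and cell with Cell Ranger 5.0.0 on mm10, and the kit version is v2 in the labels and v3.1 in the study's methods. The counts are filtered 10x matrices in which no normalization was applied. Genes were matched by symbol (38 symbols occur more than once, none of them a member), and reads of overlapping or near-identical genes cannot be told apart.

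From the counts, cells were kept within the study's limits (1000 to 5500 genes, at most 30000 UMIs, at most 7% mitochondrial UMIs) with the keratin and Ptprc rule. UMIs were summed per library, since cells are not replicates, and tested with edgeR 4.0.16 in R 4.3.3 (filterByExpr, TMM, glmQLFit and glmQLFTest; all 4 groups in 1 fit; Benjamini-Hochberg over all genes; called under 0.05). An additive fit had YAP and E6-E7 terms, and the interaction was the contrast (EY - Y) - (E - N). A term's value is a log2 fold change. Printed CPM of the groups are TMM-scaled. CPM of marker list sums, cell classes, leukocytes, stromal cells, cells above the upper limits and cells near the keratin edge are of summed UMIs. Levels are not compared between genes. Cell classes were compared by an exact sign-flip permutation test over libraries on log2(CPM + 1) in numpy 2.4.6. An edgeR fit with a library block was an alternative chosen after seeing the data. Exact binomial intervals were computed with scipy 1.17.1. The planned adjustment over 14 member tests was dropped in favor of unadjusted p beside the share of all genes that pass. Leukocytes were cells with Ptprc and keratins under 0.5%, and stromal cells had Col1a1, Col1a2, Col3a1, Dcn and Lum at 0.5% or more without either. Doublets were not removed in the main analysis. Scrublet marked 0.933% of all cells (1 of 7132 in the first E library, where it did not work) and their removal was an alternative. It also marked few cells in the first EY library (3 of 4074) and the second E library (13 of 2916). The removal left the epithelial cells of the second N, first E and first EY libraries unchanged, so it tests nothing there.

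The members and gene lists were chosen with earlier results of these data known. Genes named from the lists were up to 3 called per list in EY against N with the largest change and a mean of at least 5 CPM in N or EY; others say so. Likeness was Pearson's r of log2(CPM + 1) over 8 libraries. Scripts were tested on simulated data. Replicates are 2 libraries per group, so p-values rest on 2 animals each, or on pools where a title names 2. In summed cells, fewer cells expressing a gene and less RNA per cell were told apart only where shares of cells are given. Intervals and limits of 3 counts cover counting error only. Alternatives were cell limits, gate, transcripts of other cells, thinning, scaling, filter, DESeq2 1.42.0, the 2 groups alone and each library left out; running them for the named list genes was added after seeing the data.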

Additional observations from a re-analysis of the deposited data

How the results depend on the processing

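No paired analysis was possible because the replicate numbers were given in accession order and pair no libraries across groups. For 40 results on single genes, 731 values under alternatives kept direction and side of the threshold in 581, kept direction but lost the threshold in 113, gained it in 25 and changed sign in 12.

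The count of members called in EY against N (1) became 2 (Igf2 added) with no upper limits, with keratins at 2% or more, with no leukocyte transcripts and with no filter on low genes, 3 (Igf2 and Igf2bp3 added) with no cell limits, and 0 to 3 when each library was left out (0 without the first N or the second EY library, 3 without the first EY library). In Y against N (1) it became 2 with no upper limits, no cell limits, no filter on low genes and DESeq2, 0 with the 2 groups alone, and 0 to 2 when each library was left out. In E against N (0) it became 1 with no filter on low genes. The YAP term (2) gave 5 with no upper limits (Igf2, Igf1r and Igf2r added), 6 with no cell limits (also Igf2bp3) and 1 to 2 when each library was left out. The E6-E7 term (0) gave 1 with no stromal transcripts, no filter on low genes and DESeq2. The Krt13 comparison (3) gave 6 with no upper limits and 1 with the edgeR library block, and the cycling comparison (2) gave 1 with that block.

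The interaction of Igf2bp1 (-0.08) changed sign with no upper limits (0.99), no cell limits (0.73), keratins at 2% or more (0.33) and DESeq2 (0.15), and lay between -1.45 and 1.78 when each library was left out (1.78 without the first N library, 0.84 without the first E, 0.031 without the second Y and 0.079 without the first EY library). None of these passed the threshold. H19 in EY against N (0.47) was -0.0217 with no stromal transcripts and lay between -0.12 (without the second EY library) and 0.86 when each library was left out, and Igf2bp2 (0.89) was -0.0406 with no cell limits and lay between -0.28 (without the first EY library) and 2.38. The cause of these changes was not tested.

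Genes called in all moved from 2550 to between 5 (without the first N library) and 6059 in EY against N, from 62 to between 0 and 1504 in Y against N, from 33 to between 0 and 367 in E against N, from 0 to as many as 672 in the interaction, from 1217 to between 324 and 6269 in the YAP term and from 55 to between 1 and 765 in the E6-E7 term. Depth limits Igf2, Igf2bp2 and Igf2bp3, which had few UMIs in every group, and the first EY library, with 170 cells.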

Other observations

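Leukocytes of the same libraries, which the keratin rule leaves out, showed another order for Igf1r. It stood at 9.08 and 15.3 CPM in leukocytes of N, 5.64 and 17.9 in E, 27.6 and 19.99 in Y, and 62.0 and 51.2 in EY, so both EY libraries lay above all others, while epithelial Igf1r was highest in Y. Leukocyte Igf2r was 24.8 and 34.6 CPM in N, 20.96 and 28.9 in E, 27.5 and 19.3 in Y, and 14.2 and 21.8 in EY, and its groups overlapped. The makeup of the leukocytes by genotype was not separated for these values, so levels within a leukocyte type are not given.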
